A study of Homo sapiens with 4 samples.

Results

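The genes with the symbols ZSCAN, ZKSCAN and ZFP were compared between MORC2 knockout (KO) and wild-type (WT) HEK293T cells by RNA-seq. They are the protein-coding genes in RefSeq whose symbol is ZSCAN, ZKSCAN or ZFP followed by digits, and 49 of the 28775 genes of the count table met this rule. The rule uses symbols alone, but it was set with earlier results of these data known. Of these, 21 are ZSCAN genes, 7 are ZKSCAN genes, 11 are ZFP genes whose proteins carry a KRAB domain, 3 are the ZFP36 family and 7 are other ZFP genes. Another 7 pseudogenes and non-coding genes share these prefixes and were not counted among the 49.

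HEK293T is a transformed line derived from human embryonic kidney cells. The 4 samples were MORC2 KO replicate 1 (MORC2 knock-out, sgRNA 1), MORC2 KO replicate 2 (MORC2 knock-out, sgRNA 2), WT replicate 1 and WT replicate 2, and no sample received a further treatment. The KO lines were made by electroporating Cas9 protein with 1 of 2 gRNAs and are bulk lines, not single clones, so cells without an edit on every allele can remain in them. Each gRNA was used in a single sample, so the gRNA and the replicate cannot be told apart. Depth on genes was 59803625 and 64312514 counts for MORC2 KO replicates 1 and 2, and 60331708 and 53970043 counts for WT replicates 1 and 2. The filament genes that mark HEK293T were present, with VIM at 30597 to 36603 counts, NEFL at 3658 to 4247, INA at 3719 to 4914 and NEFM at 319 to 585 in a sample, whereas KRT8 (118 to 150 counts) and PAX2 (69 to 106) were low. The blood markers PTPRC and CD3E and the fibroblast marker DCN had 0 to 2 counts in every sample. The endothelial marker PECAM1 had 2 to 5 counts, the liver markers ALB and APOA1 had 6 to 14 and 3 to 7, and COL1A1, which fibroblasts express strongly, had 194 to 238. KRT18 had 352 to 408 counts. Without overlap between the groups, NEFM and INA were higher in KO (log2 fold changes 0.44 and 0.12), and NEFL, KRT18 and COL1A1 were lower (-0.091, -0.15 and -0.29). None of these was called (the smallest edgeR adjusted p was 0.118, for NEFM), and their part in the results was not tested.

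SCAN is a vertebrate protein domain that lets zinc finger proteins pair with each other, and it descends from the capsid part of a retrotransposon Gag protein. KRAB is a repressor domain that binds TRIM28, which brings in the histone methyltransferase SETDB1 and heterochromatin protein 1. ZSCAN proteins combine SCAN with DNA-binding zinc fingers, ZKSCAN proteins hold SCAN and KRAB together, most ZFP proteins have zinc fingers with or without KRAB, and the ZFP36 family is a separate group of zinc finger proteins that bind AU-rich elements of mRNA and promote its decay. MORC2 is an ATPase that compacts DNA in vitro and is known to work with the HUSH complex in silencing.

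MORC2 itself was measured first. It had 3064 and 3637 counts in the KO samples against 5131 and 4669 in the WT samples. In CPM, which are counts scaled to library size with TMM factors, this was 53.1 ± 2.69 (SD, n = 2) against 87.0 ± 1.06 (SD, n = 2), and both KO samples were below both WT samples. The log2 fold change, KO minus WT, was -0.71 (SE 0.06, edgeR quasi-likelihood F-test, Benjamini-Hochberg adjusted p = 0.000137). An edit need not remove the RNA. The antisense gene MORC2-AS1 covers 23.3% of the exonic sequence of MORC2, where read pairs went uncounted for both.

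No ZSCAN, ZKSCAN or ZFP gene was called at an adjusted p of 0.05. Of the 49 genes, 41 had enough counts to be tested, and 0 were called higher and 0 lower in MORC2 KO, both with edgeR and with DESeq2, beside 0.588% of all 16675 tested genes called higher and 0.03% called lower with edgeR. At an unadjusted p of 0.05, edgeR placed 8 of the 41 higher (19.5%, against 8.14% of all tested genes) and 1 lower (2.44%, against 6.17%). Both KO samples were above both WT samples for 19 of the 41 genes (46.3%, against 24.1% of all tested genes) and below both for 5 (12.2%, against 23.4%). Among the 440 tested protein-coding genes with ZNF symbols, these shares were 50.9% above and 6.82% below. At an unadjusted p of 0.05, edgeR placed 27.7% of those ZNF genes higher and 0.682% lower. The log2 fold change was positive for 31 of the 41 genes and negative for 10 (75.6% positive, against 51.5% of all tested genes). With loess offsets on abundance 63.4% were positive (against 49.7%), as were 63.4% without KO replicate 2 (against 50.2%). The median log2 fold change of the 41 genes was 0.067 beside 0.005 over all tested genes, with quartiles of 0.001 and 0.16. It was 0.035 without KO replicate 2 and 0.104 without KO replicate 1. These genes, called members from here on, were thus more often on the higher side than the tested genes as a whole, by amounts that did not pass the adjusted test for any of them, the smallest adjusted p being 0.135.

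**Figure D1:**
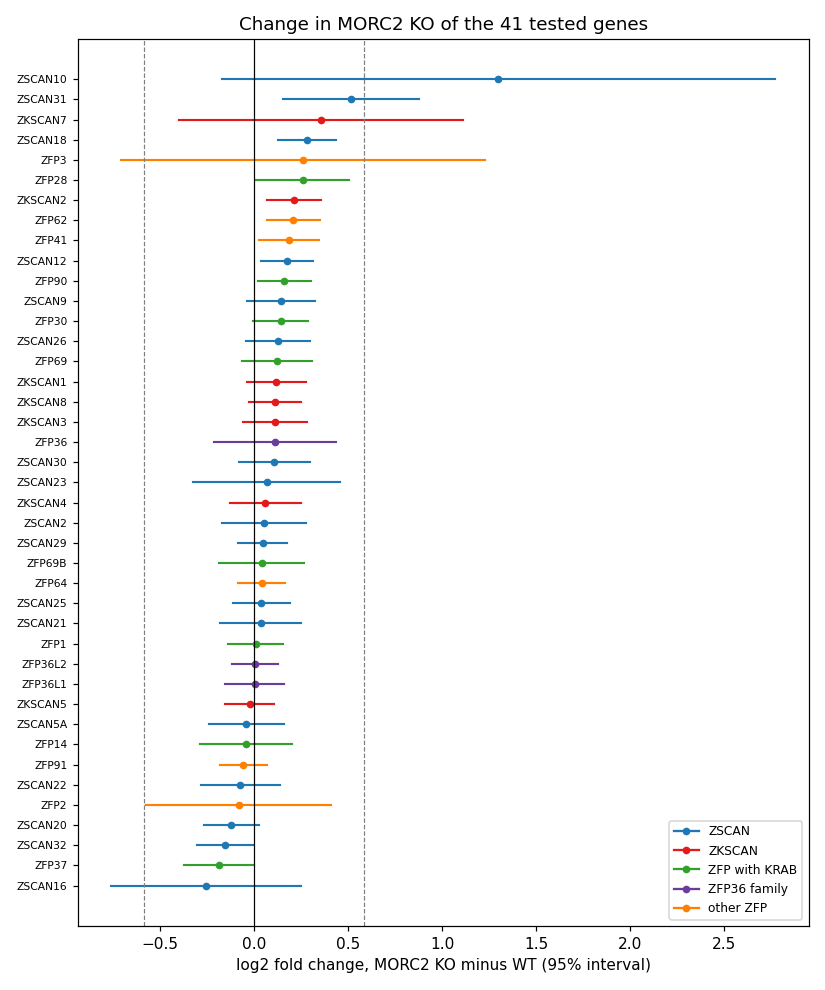
Log2 fold change of each of the 41 tested genes, MORC2 KO minus WT, as points with 95% intervals as lines, coloured by group; the dashed lines mark 1.5-fold in either direction. The points run from -0.26 (ZSCAN16) to 1.30 (ZSCAN10), and 8 intervals lie above 0 and 1 below it.

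The intervals show what size of change these samples could hide. For 36 of the 41 genes the 95% interval lay within 1.5-fold (0.585 on the log2 scale) in either direction, and for 38 within 2-fold. The standard error had a median of 0.079 and ranged from 0.057 for ZFP36L2 to 0.68 for ZSCAN10. The intervals of ZSCAN31, ZSCAN16, ZKSCAN7, ZFP3 and ZSCAN10 reached past 1.5-fold. Among the 3739 tested genes of any kind whose mean log2 CPM fell between the quartiles of the members (2.94 and 5.07), 48 were called, the smallest called change was 0.34 on the log2 scale and the median called change was 0.57.

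Levels were compared between genes per kilobase of exon. The highest was ZFP36L2 (mean over the 4 samples 32.7 CPM per kb), an RNA-binding protein of the ZFP36 family, followed by ZFP91 at 21.3, an atypical ubiquitin ligase, ZKSCAN8 at 12.9, ZKSCAN1 at 9.31 and ZFP64 at 9.22. The ranges over samples of these first 3 genes did not overlap, whereas ZKSCAN1 (8.53 to 10.3 CPM per kb) overlapped ZFP64 (9.06 to 9.38) and ZFP62 (8.42 to 10.3). Below 1 CPM per kb lay ZFP28 (0.972), ZFP14 (0.903), ZSCAN16 (0.588), ZSCAN31 (0.516), ZFP2 (0.5), ZKSCAN7 (0.127), ZFP3 (0.0523) and ZSCAN10 (0.0507) among the tested genes. The lowest of these, ZSCAN10, rested on 1 to 13 counts in a sample.

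**Figure D2:**
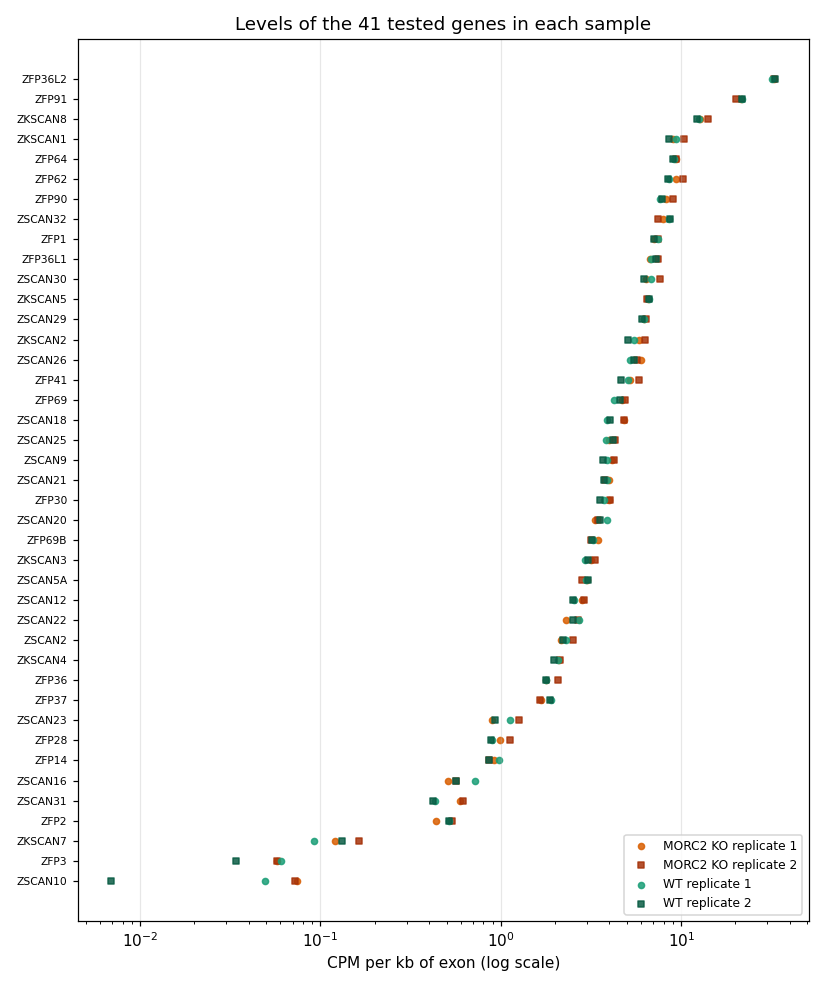
Level of each of the 41 tested genes in every sample, in CPM per kb of exon on a log axis, ordered by the mean; circles are replicate 1 and squares replicate 2, with KO in orange and red and WT in green. For most genes the 4 points lie close together beside the range from 0.0507 (ZSCAN10) to 32.7 (ZFP36L2), and the WT replicate 2 point of ZSCAN10 rests on 1 count.

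ZSCAN18 had the smallest p of the 41 tested genes. Its promoter and those of ZFP62 and ZSCAN31 are shown because they are among the 4 genes with the smallest p. Each sequence is the 150 bases before the most upstream start that RefSeq lists (GRCh38.p14), read 5′ to 3′ on the strand of the gene, with GC boxes (GGGCGG or its reverse complement CCGCCC) in capitals. All 3 genes are on the minus strand, at chr19:58118405-58118554 for ZSCAN18, chr5:180861277-180861426 for ZFP62 and chr6:28356272-28356421 for ZSCAN31.
ZSCAN18: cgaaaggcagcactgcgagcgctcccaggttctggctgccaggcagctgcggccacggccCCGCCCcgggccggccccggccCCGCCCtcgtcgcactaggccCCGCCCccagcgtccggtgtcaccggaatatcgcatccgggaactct
ZFP62: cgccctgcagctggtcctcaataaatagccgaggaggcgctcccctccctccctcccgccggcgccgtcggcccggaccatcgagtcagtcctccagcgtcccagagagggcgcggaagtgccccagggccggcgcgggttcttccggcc
ZSCAN31: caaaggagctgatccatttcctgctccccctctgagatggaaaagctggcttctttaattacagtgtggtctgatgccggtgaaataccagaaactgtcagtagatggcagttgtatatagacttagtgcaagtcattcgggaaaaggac

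Over the 250 bases before the start, ZSCAN18 held 27 CpG dinucleotides and 3 GC boxes, ZFP62 held 24 and 1 (the box lies outside the bases shown), and ZSCAN31 held 3 and 0. GC content was 69.6% for ZSCAN18 and for ZFP62 and 49.2% for ZSCAN31. Of the 33 tested members with a promoter in the RefSeq table, 57.6% held a GC box on either strand, 27.3% a CCAAT box (CCAAT or ATTGG) and 0% the letters TATAAA (either strand), beside 66.6%, 35% and 5.67% of the promoters of 11537 tested protein-coding genes. The median was 21 CpG dinucleotides in both sets. ZSCAN31 had 3 listed starts and ZSCAN18 had 2, and which of them these cells use was not tested.

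ZSCAN18 (chromosome 19, 61180644 to 61214896 on T2T-CHM13v2.0, 9 exons) had 22.0 CPM in both MORC2 KO samples, against 17.7 and 18.5 CPM in WT. Both KO samples were above both WT samples, and the KO samples differed from each other by less than the WT samples did. The log2 fold change was 0.28 (SE 0.071, 95% interval 0.12 to 0.43, unadjusted p = 0.0019 and adjusted p = 0.135 in edgeR). Against the WT mean the difference in log2 CPM was 0.28 in each KO sample. It was called without the filter on low counts (adjusted p = 0.0265 in edgeR), the single member for which this was so.

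ZSCAN31 showed the largest difference among the members with no overlap between groups and at least 100 counts in every sample. It is a SCAN zinc finger gene of the chromosome 6 cluster, with 159 and 184 counts in KO and 115 and 100 in WT. In CPM the KO samples were at 2.66 and 2.79 and the WT samples at 1.93 and 1.88, with a log2 fold change of 0.51 (SE 0.17, interval 0.15 to 0.88, edgeR adjusted p = 0.227). ZSCAN12, in the same cluster, had 29.7 and 30.6 CPM in KO and 26.7 and 26.6 CPM in WT. Its log2 fold change was 0.18 (interval 0.037 to 0.31, edgeR adjusted p = 0.264).

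Other ZSCAN genes were on the lower side. ZSCAN32 had 25.5 and 23.8 CPM in KO and 27.3 and 27.7 in WT, without overlap, and was the single member with an unadjusted p under 0.05 on that side (log2 fold change -0.16, edgeR adjusted p = 0.327). ZSCAN16 had the lowest log2 fold change, -0.26, on 62, 76, 87 and 61 counts in KO replicates 1 and 2 and WT replicates 1 and 2, and its groups overlapped. Its value was -0.067 without WT replicate 1 and -0.42 without WT replicate 2. ZSCAN10, which helps to maintain pluripotency in embryonic stem cells, had the highest fitted value, 1.30, on 12 and 13 counts in KO against 8 and 1 in WT. Its interval ran from -0.17 to 2.77, and leaving out 1 sample moved its fitted value between 0.56 and 3.26. Over the 17 tested ZSCAN genes 12 values were positive, with a median of 0.051 that ranged from -0.003 to 0.076 over the alternative settings, the negative value being the one with KO replicate 1 as the only KO sample.

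ZKSCAN genes, with SCAN and KRAB, were positive for 6 of 7, with a median log2 fold change of 0.11 (0.056 to 0.17 over the alternative settings). ZKSCAN2 had 43.5 and 47.1 CPM in KO and 40.6 and 37.6 CPM in WT. Its KO samples were both above its WT samples (log2 fold change 0.21, SE 0.066, edgeR adjusted p = 0.212), and 3.62% of its exonic bases overlap ZKSCAN2-DT. ZKSCAN8 had 96.3 and 106.3 CPM in KO and 95.2 and 92.4 CPM in WT. ZKSCAN1, whose locus also makes a well-known circular RNA, had 93.5 and 107.2 CPM in KO and 96.6 and 88.4 CPM in WT. In both, KO replicate 2 was the highest sample, and for ZKSCAN1 the groups overlapped. ZKSCAN3, known as a repressor of autophagy genes, had 15.1 and 15.9 CPM in KO and 14.1 and 14.6 CPM in WT. ZKSCAN7 had a log2 fold change of 0.36 on 22 to 43 counts in a sample, with overlapping groups and an interval of -0.40 to 1.11. It was 0.11 without WT replicate 1 and 0.62 without WT replicate 2.

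Of the 8 tested ZFP genes with KRAB, 6 were positive and the median was 0.081 (0.039 to 0.12 over the alternative settings). The lowest value came with loess offsets on abundance, where 4 were positive. ZFP90 had 41.1 and 45.3 CPM in KO against 38.3 and 39.1 in WT (log2 fold change 0.16, edgeR adjusted p = 0.308), and ZFP28 had 6.56 and 7.46 CPM against 5.88 and 5.86 (0.26, edgeR adjusted p = 0.335). Neither overlapped between the groups, and KO replicate 2 was the higher KO sample in both. Without KO replicate 2 the log2 fold changes were 0.088 for ZFP90 and 0.16 for ZFP28, and without KO replicate 1 they were 0.21 and 0.33. ZFP37 was on the other side without overlap, at 10.6 and 10.4 CPM in KO and 12.1 and 11.9 CPM in WT (-0.19, edgeR adjusted p = 0.349). The neighbours ZFP69 and ZFP69B on chromosome 1 gave 0.12 and 0.039. For ZFP69B the log2 fold change was 0.10 without KO replicate 2 and -0.035 without KO replicate 1.

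Of the 6 other ZFP genes tested, 4 were positive, with a median of 0.11 that turned to -0.013 without WT replicate 2. ZFP62 had 40.0 and 44.0 CPM in KO and 36.7 and 36.1 CPM in WT, without overlap (log2 fold change 0.21, SE 0.065, edgeR adjusted p = 0.212). ZFP41 had 31.9 and 35.4 CPM in KO and 31.04 and 28.2 CPM in WT (0.18, edgeR adjusted p = 0.303), and leaving out 1 sample moved its log2 fold change between 0.11 and 0.25. ZFP91 had 124.3 and 116.9 CPM in KO and 125.7 and 125.4 CPM in WT (log2 fold change -0.058), and 30.2% of its exonic bases are shared with the read-through gene ZFP91-CNTF. Its log2 fold change was -0.12 without KO replicate 1 and -0.013 without KO replicate 2. ZFP64, a transcription factor that some leukaemias need, stayed within 44.7 to 46.3 CPM in all 4 samples (0.039, interval -0.086 to 0.16). ZFP36L2 had 121.0 and 120.5 CPM in KO and 118.2 and 122.8 CPM in WT, and ZFP36L1 had 23.7 and 26.1 CPM in KO and 24.2 and 25.7 CPM in WT. The median of the 3 genes of the ZFP36 family was 0.003 (-0.025 to 0.057 over the alternative settings). The fitted differences of ZFP36L2 and ZFP36L1, 0.003 and 0.001, were smaller than their errors and changed sign with the scaling of the libraries. ZFP36, also known as tristetraprolin, had 3.13 and 3.60 CPM in KO and 3.13 and 3.12 CPM in WT (0.11, interval -0.21 to 0.43), and without KO replicate 2 its log2 fold change was 0.0038.

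The remaining 8 genes were too low to be tested. ZSCAN1 had 0 counts in every sample. ZSCAN4, which marks a state resembling the early embryo, had 3 and 2 counts in KO and 0 in both WT samples, where 3 counts correspond to 0.0502 and 0.0454 CPM in the KO and 0.0504 and 0.0564 CPM in the WT libraries. ZFP42, known as the stem cell marker REX1, had 0, 0, 0 and 1 counts in KO replicates 1 and 2 and WT replicates 1 and 2, and ZFP57, which keeps methylation at imprinted genes, had 0, 0, 0 and 2. ZFP82 (3, 1, 0 and 1), ZFP92 (3, 3, 1 and 1), ZSCAN5B (8, 1, 6 and 9) and ZSCAN5C (4, 3, 7 and 0) were also at or near this level. At this depth no difference could be shown for any of them.

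The differences from WT were larger in MORC2 KO replicate 2 than in MORC2 KO replicate 1. Against the WT mean, the median difference in log2 CPM over the 41 genes was 0.034 in replicate 1, with 26 positive, and 0.145 in replicate 2, with 30 positive. Over all 16675 tested genes it was 0.0015 in replicate 1, with 8430 positive, and 0.013 in replicate 2, with 8753 positive. The size of the difference between the WT samples, whichever was higher, had a median of 0.063, and that between the KO samples 0.088. With KO replicate 2 as the only KO sample in the edgeR fit, 9 of 42 tested members were called higher (21.4%, against 8.16% of all genes then tested) and 1 lower (2.38%, against 12.4%). The 9 were ZKSCAN2, ZFP90, ZSCAN30, ZFP28, ZSCAN18, ZFP62, ZKSCAN8, ZKSCAN1 and ZFP41, and the 1 was ZSCAN32. The median log2 fold change of the members was 0.035 with KO replicate 1 as the only KO sample and 0.104 with KO replicate 2 as the only one. In these fits the lone KO sample is assumed to vary like the WT samples. ZSCAN18 and ZSCAN31 were of like size in both KO samples, at 0.28 and 0.26 and at 0.48 and 0.53 in log2 fold change when replicate 1 or replicate 2 stood alone. ZKSCAN1 gave 0.017 and 0.20, ZKSCAN8 gave 0.039 and 0.17, ZSCAN32 gave -0.10 and -0.22, and ZSCAN30 gave -0.029 and 0.22.

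**Figure D3:**
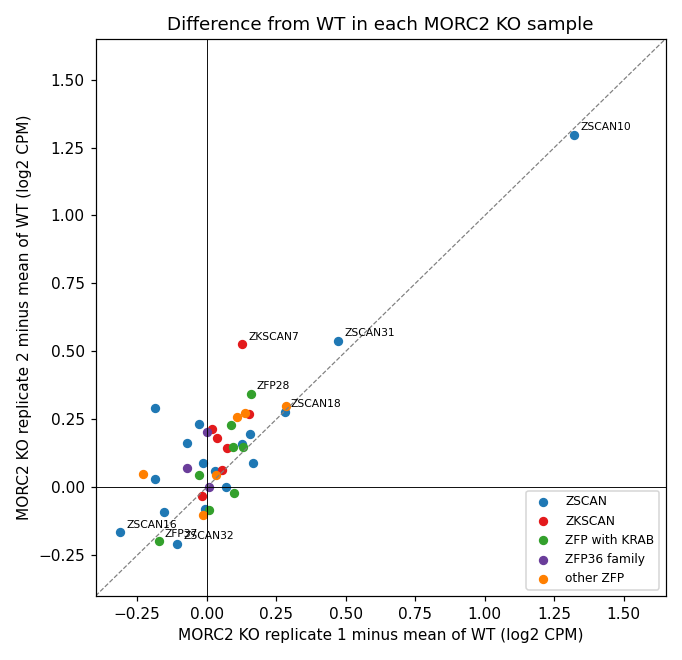
Difference in log2 CPM from the WT mean in MORC2 KO replicate 1 (horizontal) and replicate 2 (vertical) for the 41 tested genes, with a dashed line where both are equal. Both axes share the WT samples, so only the size in each KO sample is to be read; more genes lie above the line than below it at the middle of the plot, where the median is 0.034 in replicate 1 and 0.145 in replicate 2.

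The genes were not spread evenly over the genome. They lay on 18 chromosomes, with 12 on chromosome 19 and 10 on chromosome 6, and 27 of the 49 lay within 500000 bases of another member, in 7 neighbourhoods. The largest was a stretch of chromosome 6 from 27994629 to 28314932 (T2T-CHM13v2.0) with 9 members, namely ZSCAN16, ZKSCAN8, ZSCAN9, ZKSCAN4, ZSCAN26, ZSCAN31, ZKSCAN3, ZSCAN12 and ZSCAN23. All 9 were tested and 8 were positive (88.9%, against 51.5% of all tested genes). Both KO samples were above both WT samples for 7 (77.8%, against 24.1%) and below them for 0 (against 23.4%). Their median log2 fold change was 0.11 (0.075 to 0.15 over the alternative settings), beside 0.042 (0.012 to 0.057) for the 32 tested members elsewhere, whose lowest value came without KO replicate 2. Of the 440 tested protein-coding genes with ZNF symbols, wherever they lie, 81.6% were positive, with a median of 0.108. Without overlap, 50.9% of those ZNF genes were higher in KO and 6.82% lower. In KO replicate 1 the median difference from WT of the 9 was 0.073, and in KO replicate 2 it was 0.16. In the neighbourhood of 4 members on chromosome 7 (ZKSCAN5, ZSCAN25, ZKSCAN1 and ZSCAN21) the median was 0.036, with 3 of the 4 positive, 0 higher without overlap and 1, ZKSCAN5, lower without overlap. In this neighbourhood the log2 fold changes without KO replicate 2 were -0.015, -0.013, 0.017 and 0.070, in that order. There, 50.2% of the exonic bases of ZSCAN21 overlap ZNF3 and 35.3% of those of ZSCAN25 overlap CYP3A5, so part of their reads was left out of the counts.

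Other genes inside the chromosome 6 stretch were also positive. Of 4 such genes, 3 were tested and 3 were positive, with 0 called. TOB2P1, a pseudogene, had 322 and 544 counts in KO and 241 and 253 in WT (log2 fold change 0.64, edgeR adjusted p = 0.166), and KO replicate 2 stood apart from the other 3 samples. PGBD1, which derives from a piggyBac transposase, had 20.7 and 18.7 CPM in KO and 17.8 and 18.6 CPM in WT (0.11), and ZKSCAN8P1, a pseudogene of ZKSCAN8, had 3.46 and 3.19 CPM against 3.16 and 3.08 (0.091). Multi-mapping reads were counted, so reads of ZKSCAN8 and its copy may be counted at either.

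**Figure D4:**
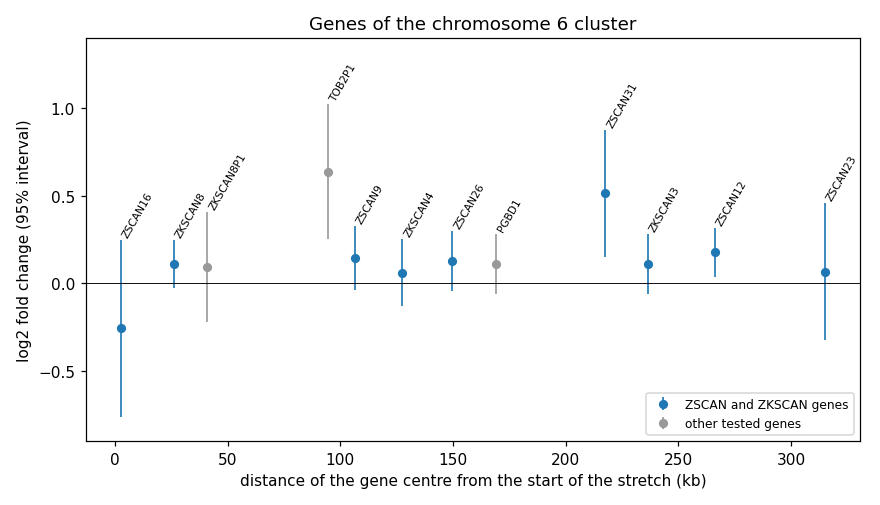
Log2 fold change with 95% interval of the 9 members (blue) and the 3 other tested genes (grey) of the chromosome 6 stretch, placed by distance from its start in kb. Apart from ZSCAN16 at -0.26 every point is above 0, and the intervals of ZSCAN31, ZSCAN12 and TOB2P1 lie wholly above it.

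As gene models the members had few exons, with 1 long one. The 41 tested members had a median of 6 exons (2 to 13) and an exonic length of 4573 bases, of which the longest exon held 68.7%. For 14137 tested protein-coding genes the medians were 10 exons, 3756 bases and 52.0%. GC content was 46.8% in the members and 48.7% in the protein-coding genes. Adjusting the counts for exon length and GC content gave a median change of the members of 0.075, loess offsets on abundance gave 0.048, and leaving out KO replicate 2 gave 0.035. Read pairs are missing for the 10 members that share exonic bases with another gene, and over the 32 tested members without such overlap the median was 0.110.

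Genes of related function were read from the same fit. A list of 26 genes with other symbols that also carry the SCAN domain was drawn from general knowledge and is not complete, since PGBD1 carries the domain too. Of the 26, 25 were tested. Of these, 1 was called higher (4%, against 0.588% of all tested genes), 0 were called lower and 20 were positive (80%, against 51.5%), with a median of 0.092. The called gene was ZNF232, with 23.9 and 22.7 CPM in KO and 14.1 and 14.8 CPM in WT (log2 fold change 0.69, SE 0.075, edgeR adjusted p = 0.00073). ZNF274, a SCAN and KRAB protein that brings SETDB1 to zinc finger genes, had 55.6 and 56.2 CPM in KO and 48.9 and 47.1 CPM in WT (0.22, edgeR adjusted p = 0.147), and it was called without the filter on low counts, with offsets on exon length and GC content and without KO replicate 1. Among the 516 protein-coding genes with ZNF symbols, which include most of those 26, 440 were tested, 13 were called higher (2.95%, against 0.588% of all tested genes) and 0 lower, 81.6% were positive (against 51.5%) and the median was 0.108. The median of the ZSCAN, ZKSCAN and ZFP genes was 0.067 over all 41 and 0.110 over the 32 without shared exonic bases. The ZNF genes were not filtered for shared exonic bases, and the difference from them was not tested.

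**Figure D5:**
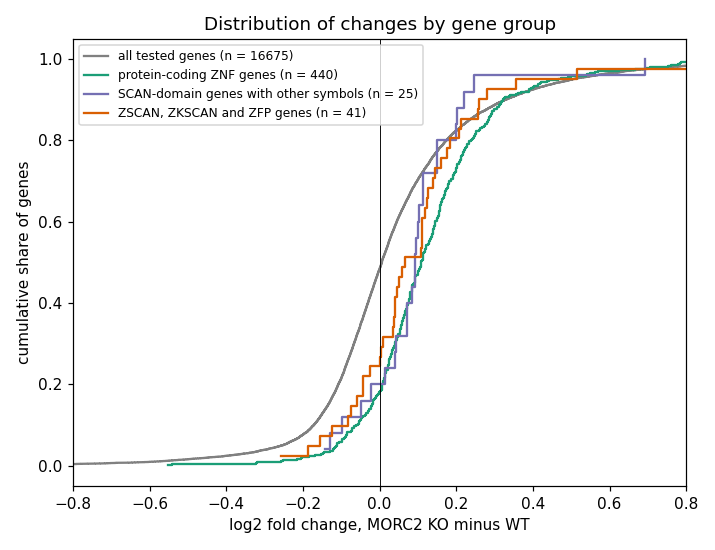
Cumulative share of genes by log2 fold change, MORC2 KO minus WT, for all tested genes (grey), protein-coding ZNF genes (green), SCAN-domain genes with other symbols (purple) and the 41 tested ZSCAN, ZKSCAN and ZFP genes (orange), with values past 0.8 in either direction outside the axis. The orange curve lies to the right of the grey one around 0, where 75.6% of its genes and 51.5% of all genes are positive.

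Among the partners of KRAB and genes regulated through mRNA decay, no gene was called with the filter on low counts and genotype alone in the edgeR model over all 4 samples. Of the 10 tested genes of the KRAB corepressor machinery (TRIM28, SETDB1, ATF7IP, the CBX and CHD genes, HDAC1 and HDAC2) 0 were called and 3 were positive, with a median of -0.089. With loess offsets on abundance 5 were positive and the median was -0.0049, and without KO replicate 2 it was -0.028. CHD4 had 466.2 and 477.8 CPM in KO and 542.5 and 519.0 CPM in WT (log2 fold change -0.17, edgeR adjusted p = 0.271), and CHD3 had 156.7 and 157.7 CPM against 181.6 and 170.0 (-0.16, edgeR adjusted p = 0.268). Both were called without KO replicate 1. SETDB1 had 106.1 and 109.7 CPM in KO and 95.9 and 99.9 CPM in WT (0.14, edgeR adjusted p = 0.307). Of the 12 tested immediate early genes, whose short-lived mRNAs include known ZFP36 targets, 0 were called and 6 were positive, with a median of -0.010. The direction turned with 1 library, since 3 were positive without KO replicate 1 (median -0.075) or without WT replicate 1 (-0.045), 8 without KO replicate 2 (0.033) and 9 without WT replicate 2 (0.028). CCN1, a secreted matrix protein, had 167.8 and 130.8 CPM in KO and 182.1 and 195.8 CPM in WT (-0.34, edgeR adjusted p = 0.164). It was lowest in KO replicate 2, and its log2 fold change was -0.54 without KO replicate 1 and -0.17 without KO replicate 2. It was called with the replicate block (edgeR adjusted p = 0.00843), without the filter on low counts, without KO replicate 1 and without WT replicate 1. KLF6 had 78.9 and 78.7 CPM in KO and 67.6 and 70.3 CPM in WT (0.19, edgeR adjusted p = 0.187), and was called without KO replicate 1. Of 9 genes that are active with ZSCAN4 in early embryos, CCNA1 alone was tested, with 34 and 42 counts in KO and 28 and 23 in WT (0.41, interval -0.28 to 1.11). RFPL4B had 8 and 2 counts in KO and 0 in both WT samples, and the other 7 had 0 to 2 counts in every sample.

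The non-coding and pseudogene partners that carry the names of members showed 0 calls, and ZFP28-DT (3, 7, 13 and 3 counts in KO replicates 1 and 2 and WT replicates 1 and 2) was too low to be tested. ZFP91-CNTF had 13 and 5 counts in KO and 13 and 18 in WT. It was lower without overlap in CPM (log2 fold change -0.93, interval -2.13 to 0.27). ZKSCAN7-AS1 had 44 and 49 counts in KO and 50 and 23 in WT (0.20, overlapping groups). ZKSCAN2-DT, which starts beside ZKSCAN2 on the other strand, had 102 and 165 counts in KO and 109 and 73 in WT (log2 fold change 0.39, overlapping groups). ZSCAN12P1, just outside the chromosome 6 stretch, had 284 and 286 counts in KO and 310 and 301 in WT. Its difference was on the lower side without overlap (-0.26, edgeR adjusted p = 0.369), where ZSCAN12 was on the higher side. ZSCAN16-AS1 had 345 and 326 counts in KO and 340 and 265 in WT, and its log2 fold change was -0.0023. The counting took no account of strand, so read pairs went uncounted for both ZSCAN16 and its antisense gene where their exons overlap. The overlap is 9.67% of the exonic bases of ZSCAN16.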

How the data were processed

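RNA-seq was read from 4 samples of HEK293T cells, 2 MORC2 KO and 2 WT. The sample labels name HEK293T, while the methods for making the KO lines name HEK293, and the labels were followed. Poly-A selected libraries were sequenced as paired-end reads. The authors aligned read pairs with Subread 2.0.6 to T2T-CHM13v2.0 and counted them on RefSeq genes with featureCounts. The deposited table holds raw counts, with each value the number of read pairs on a gene. Per the file headers, multi-mapping reads were counted, strand was ignored and read pairs that overlap several genes were left out, which makes paralogs and overlapping genes less certain. The methods speak of default options for the counting, and the headers were followed. 0 columns of other samples were present. Symbols came from RefSeq by Entrez identifier (28763 of 28775 matched).

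The comparison was made in R 4.3.3 with edgeR 4.0.16 (older quasi-likelihood F-test, TMM factors of 0.986 to 1.03, filterByExpr, Benjamini-Hochberg adjustment at 0.05 over 16675 genes) on genotype alone. The biological coefficient of variation was 5.33%. SE was taken as the fitted log2 difference over the root of the F statistic. Differences per KO sample use log2 CPM with a prior count of 2. Tables were joined in Python 3.11.15 with pandas 2.3.3, and scripts were tested on simulated data. The labels do not say that replicates came from separate cultures, while the methods describe independent lines. The p-values weigh the difference between genotypes against the spread between these samples, which in KO is also that between gRNAs. They do not cover the spread between further lines or cultures.

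Depth is 53970043 to 64312514 counts on genes, and the spread between 2 samples per genotype limits the precision of all but the lowest genes. A floor of 3 counts was used for genes near 0 and covers counting error only.

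The members and lists were chosen with earlier results of these data known, and the domain groups and lists came from general knowledge, not from an annotation. Genes were named by rule: MORC2, called members, the 10 with the smallest p without overlap, the 3 highest and 3 lowest log2 fold changes, the 5 highest levels per kb, the ZFP36 family and, from each other list, called genes and the 2 with the smallest p. SETDB1, RFPL4B, the other genes of the chromosome 6 stretch and further members were named for their role or place after their values were seen. Alternatives were DESeq2 1.42.0, RLE scaling, the newer edgeR form, other filters and thresholds, offsets on abundance or on exon length and GC content (loess span 0.3, GC of the longest GENCODE transcript, known for 90.9% of tested genes), the replicate number as a block and leaving out each sample. Promoters are from the RefSeq table of GRCh38.p14, which held 40 of the 49 genes. ATAC-seq and other assays were not analysed here.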

Additional observations from a re-analysis of the deposited data

How the results depend on the processing

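With 2 samples per genotype, leaving out 1 sample moved the counts most. Members called higher ranged from 0 to 9 and lower from 0 to 1, all genes called higher from 88 to 1397 and lower from 9 to 2117, and MORC2 stayed between -0.76 and -0.67. The highest counts came without MORC2 KO replicate 1. The median of the members was positive in all 13 settings of the fit (0.035 to 0.104), and over the 32 tested members without shared exonic bases it was 0.110. Without the filter on low counts 1 member was called higher (ZSCAN18), with 463 genes higher and 182 lower of 22728. DESeq2 called 17 genes lower in all, an adjusted p of 0.10 gave 15, and offsets on exon length and GC content gave 173 higher and 25 lower. The fit with the replicate block called 237 genes higher and 42 lower and 0 members. Over the tested genes, the difference between KO replicates 1 and 2 and that between WT replicates 1 and 2 had a correlation of -0.124 (2 pairs). The KO difference is also that between gRNAs, so this value cannot decide whether the numbers pair the samples. With crossed replicate numbers, chosen after seeing the data, 5 members were called higher and 903 genes higher and 809 lower. The sign of ZFP36L2 turned with RLE scaling (-0.0030), DESeq2 (-0.0030), offsets on exon length and GC content (-0.0041) and between samples left out (-0.025 to 0.031). That of ZFP36L1 turned with RLE scaling (-0.0048), DESeq2 (-0.0052), loess offsets (-0.013), the replicate block (-0.00076) and between samples left out (-0.070 to 0.057). Of the values of the 28 named genes under the alternatives, 332 kept their direction and side of the threshold, 20 (in 14 genes) newly passed it and 11 (in 2 genes) reversed. The causes were not tested.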
